A study of Homo sapiens with 12 samples.

Results

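The laminin chain genes LAMA1, LAMA2, LAMA3, LAMA4, LAMA5, LAMB1, LAMB2, LAMB3 and LAMC1 were followed through mRNA-seq of temozolomide-treated glioblastoma cells. They were chosen by symbol, as 9 of the 58174 genes listed in the expression table of each cell line. Other chain genes were not analysed here. The 12 libraries came from U87 (U-87 MG) and U118 (U-118 MG), established human glioblastoma cell lines, with 3 sensitive and 3 resistant libraries in each line. The labels call the groups sensitive and resistant. The study describes them as control cells and as aggregation cells that formed after treatment with temozolomide (TMZ, an alkylating chemotherapy drug) at 50 µM. Cells of both kinds came from a sorted CD133-CD15- population kept in serum with BMP2, a factor that favours differentiation. A single drug dose was thus used, and nothing in the labels says whether the 3 libraries of a group came from separate cultures, so the p-values measure the spread between these libraries, which may be technical.

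Laminins are large glycoproteins of the basement membrane, many of them cross-shaped. Each is built from an α, a β and a γ chain that pair through a coiled coil inside the cell before secretion. The α chain carries the globular domains that bind integrins, dystroglycan and other receptors, and it largely sets which receptors a laminin can engage. In many laminins, though not all, the β and γ chains complete the short arms through which laminins polymerise and anchor nidogen. In brain and glioma, laminins are known mainly from the vessel wall and from the invasive front, where tumour cells move along them.

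Values were TPM, a unit scaled to the library total and corrected for gene length, so that levels of different genes can be compared within a library. TPM keeps no read counts, and the depth of each library is unknown. The libraries held 13270 to 15290 genes at 1 TPM or more. Over the 16382 genes expressed in the series, the 3 libraries labelled U118 resistant had a rank correlation (Spearman's rho) of 0.895 to 0.913 with the U87 libraries but only 0.808 to 0.839 with the U118 sensitive libraries. In addition, 79 genes were at 10 TPM or more in every U118 sensitive library and under 0.1 TPM in every library labelled U118 resistant, and 59 of these were under 0.1 TPM in all U87 libraries as well. In U87 no gene went from 10 TPM or more to under 0.1 TPM, and 2 went the other way. The whole group stands apart, so no U118 result can be given without it, and in U118 the condition and the identity of the cultures cannot be told apart; U118 resistant names the label only. Within that group, replicate 1 had 13.23% of its TPM on mitochondrial genes, against 29.89% and 26.11% in replicates 2 and 3. The U118 sensitive libraries had 7.42%, 8.55% and 19.75%. In U87 this share was 12.87 to 16.86% in sensitive and 22.18 to 23.72% in resistant libraries. Because TPM is scaled to the library total, a larger share there lowers the values of all other genes. Of the glial markers, GFAP, S100B and SOX2 were under 1 TPM in all 12 libraries. OLIG2 read 1.45 to 4.45 TPM in U87, at most 0.052 TPM in U118 sensitive libraries and 0.570 to 1.05 TPM in those labelled U118 resistant. The summed level of the 7 glioma markers was 4800 to 7741 TPM and was carried mainly by VIM, at 4425 to 7149 TPM. CD44 read 311.4 to 867.9 TPM and NES 5.76 to 24.07 TPM.

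The genes lie on 6 chromosomes of GRCh38. LAMA2 (chr6:128883141-129516569, plus strand) and LAMA4 (chr6:112108760-112254939, minus strand) share chromosome 6, and LAMB3 (chr1:209614870-209652466, minus strand) and LAMC1 (chr1:183023460-183145592, plus strand) share chromosome 1. LAMA1 (chr18:6941744-7117814, minus strand) and LAMA3 (chr18:23689443-23956222, plus strand) lie on chromosome 18, LAMB1 (chr7:107923799-108003255, minus strand) on chromosome 7, LAMB2 (chr3:49121114-49133118, minus strand) on chromosome 3, and LAMA5 (chr20:62307955-62367312, minus strand) on chromosome 20. Strand-specific counting is not stated, so reads in stretches shared with genes on the opposite strand could not be assigned with certainty. LAMA5 shares 244 exon bases with ADRM1, which reached 505.4 TPM, and LAMB1 shares 70 exon bases with DLD, which reached 57.72 TPM. LAMA4 shares 206 exon bases with Z99289.1, which reached 1.128 TPM.

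Sequence upstream of the start was available from RefSeq (GRCh38.p14) for 8 of the 9 genes, in 10 windows of 250 bases before to 50 bases after a start, with 3 alternative starts for LAMB3. The sequences printed are those of the gene that changed most in opposite directions in the lines (LAMA4), the start of LAMB3 that holds an AP-1 motif, and LAMB1 and LAMC1, whose windows are rich in CpG. Only upstream bases that no annotated exon covers are printed, 5′ to 3′ on the strand of the gene, and capitals mark an AP-1 motif (TGANTCA) or a GC box (GGGCGG, on either strand).
LAMA4 (chr6:112254723-112254785, minus strand): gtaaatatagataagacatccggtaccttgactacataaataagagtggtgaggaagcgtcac
LAMB3 (chr1:209651395-209651624, minus strand): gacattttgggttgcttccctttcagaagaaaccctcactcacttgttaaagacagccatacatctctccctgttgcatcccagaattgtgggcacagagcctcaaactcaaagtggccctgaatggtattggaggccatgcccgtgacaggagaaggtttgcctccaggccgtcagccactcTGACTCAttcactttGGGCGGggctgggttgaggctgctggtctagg
LAMB1 (chr7:108003256-108003411, minus strand): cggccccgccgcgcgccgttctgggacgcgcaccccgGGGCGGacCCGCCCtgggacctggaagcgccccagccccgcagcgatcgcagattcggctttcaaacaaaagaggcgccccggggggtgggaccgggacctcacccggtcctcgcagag
LAMC1 (chr1:183023170-183023419, plus strand): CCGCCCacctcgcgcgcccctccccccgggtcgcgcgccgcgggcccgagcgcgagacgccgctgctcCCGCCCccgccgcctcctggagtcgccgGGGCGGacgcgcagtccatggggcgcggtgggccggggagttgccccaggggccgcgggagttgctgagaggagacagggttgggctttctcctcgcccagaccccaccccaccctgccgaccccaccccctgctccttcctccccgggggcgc

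In the LAMB3 sequence the first capital run is the AP-1 motif and the second the GC box; in LAMB1 and LAMC1 all capitals are GC boxes. TGANTCA was found in 2 of the 10 windows, the LAMB3 start above and LAMA3, against 7.71% of all 35116 RefSeq windows of this length. GC boxes were found in 8 of the 10 windows, all but LAMA4 and LAMA2, against 45% of all windows. The windows of LAMB3 starts 1 and 2 overlap and hold the same GC box, which is therefore counted in both. The core of the hypoxia response element (ACGTG or GCGTG, either strand) was found in 2 windows, LAMC1 and LAMA2, against 48.4%, and TATAAA in 0, against 11.5%. The ratio of observed to expected CpG was 0.93 in LAMB1, 0.88 in LAMC1 and 0.81 in LAMA5, but 0.44 in LAMA4 and 0.14 at the LAMB3 start shown, with a median of 0.58 over all windows. These matches describe the letters in the windows only.

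To ask how laminin expression differed between resistant and sensitive cells, log2(TPM + 1) was fitted with limma within each line, and a call required an adjusted p (Benjamini-Hochberg) below 0.05 together with a log2 change of at least 1 in size. The calls differed between the lines. In U87 resistant cells LAMA4 and LAMB3 were higher, 0 members were called lower and 7 were not called. By limma's unadjusted p under 0.05 alone, 3 were higher and 3 lower. The share of all genes at that unadjusted p was not counted, so these counts and those of the gene lists below are a description. By an adjusted p under 0.05 alone, 1306 of the 13845 genes tested in U87 were higher and 4107 lower. In the libraries labelled U118 resistant LAMB3 was higher, 7 members were lower (LAMA4, LAMA5, LAMC1, LAMA2, LAMB1, LAMB2 and LAMA3), and only LAMA1 was not called. Of all genes tested in U87, 3.03% were called higher and 7.79% lower. In U118 these shares were 8.64% and 26.6%. The median log2 change of the 9 genes was 0.12 in U87, beside -0.245 over all genes tested, and -1.36 in U118, beside -0.522 over all genes tested. All 9 passed the filter of 1 TPM in at least 3 libraries of the line, and LAMA3 passed it in U118 through the sensitive group alone. LAMA3 thus had to be lower there, and its place among the 7 is a description.

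Relative to the all-gene median, the members' median change was 0.36 in U87 and -0.84 in U118. The U118 count depended on scaling. After median-ratio scaling of the libraries, the all-gene median was -0.0617, and 1 member was called higher and 4 lower (LAMA2, LAMA4, LAMA5 and LAMC1); LAMB1, LAMB2 and LAMA3 kept log2 changes of -0.85, -0.84 and -0.88, below the size threshold. That rescaling also moved the all-gene calls of U118 from 1341 higher and 4134 lower to 2258 and 2113, and those of U87 from 419 and 1078 to 689 and 528. The U87 member calls were 2 higher and 0 lower either way. Whether fewer cells of a type or less RNA per cell lies behind a lower value cannot be told apart in bulk samples.

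**Figure D1:**
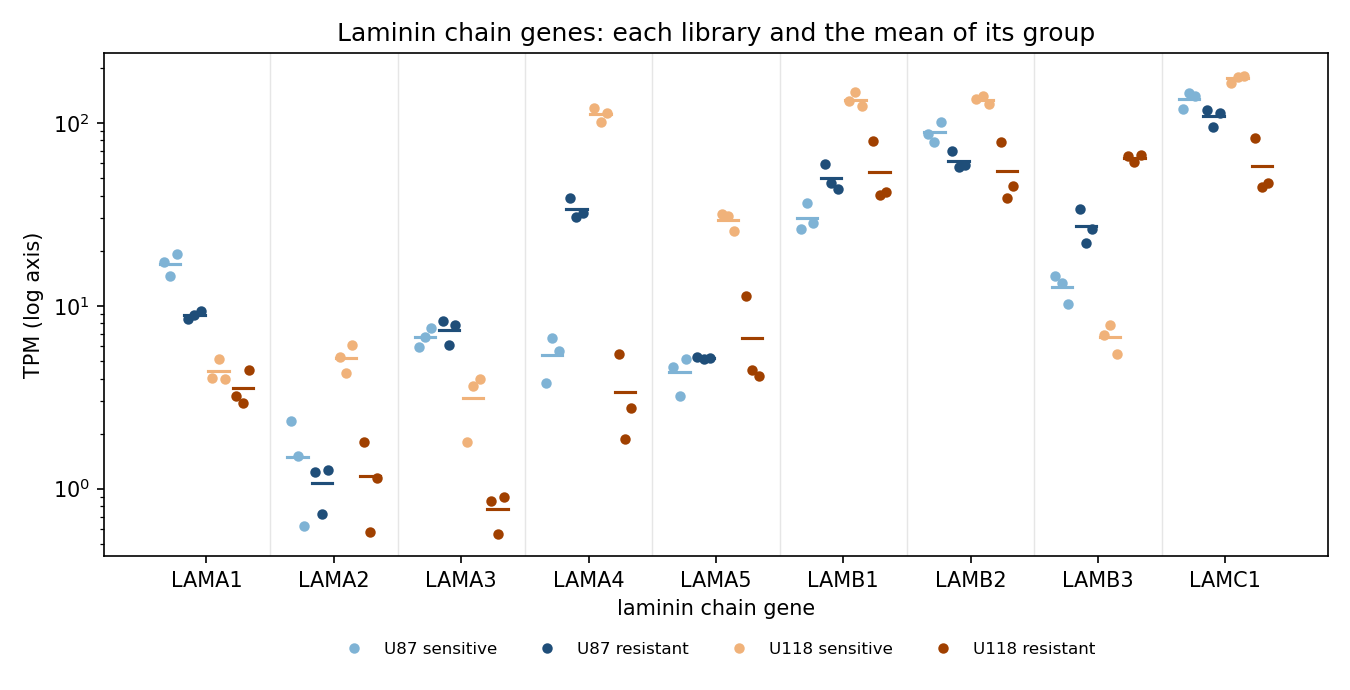
TPM (log axis) of the 9 laminin chain genes in each of the 12 libraries, with 3 points and a bar at the mean for each group. LAMA4 sits at 30.7 to 38.9 TPM in U87 resistant and 101.0 to 119.8 TPM in U118 sensitive libraries and at 1.87 to 6.68 TPM in the other groups, and LAMB3 is highest in the libraries labelled U118 resistant.

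Read without any threshold, the groups did not overlap for most members. In U87 every resistant library lay above every sensitive library for 4 members and below for 3, and the groups overlapped for 2, while 13.6% of all genes tested lay above and 39.8% below. In U118 the counts were 1 above, 7 below and 1 overlapping, while 15.7% of all genes lay above and 42.9% below. LAMA3, 1 of the 7 below, had to differ there because of the filter.

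LAMA4 encodes the α4 chain, typical of endothelial and mesenchymal basement membranes, and it moved furthest. In U87 it read 3.80, 6.68 and 5.66 TPM in the sensitive libraries and 38.9, 30.7 and 32.3 TPM in the resistant ones. In U118 it read 119.8, 101.0 and 113.1 TPM in the sensitive libraries and 5.47, 1.87 and 2.77 TPM in the resistant ones. Every resistant library was thus above the sensitive ones in U87 and below them in U118. The group mean rose 6.31-fold in U87, a log2 change of 2.47 ± 0.20 (SE, limma adjusted p = 0.00022). In U118 it fell by 4.76 ± 0.31 on the log2(TPM + 1) scale (limma adjusted p = 4.14e-06), a sensitive mean of 111.3 ± 9.54 TPM (SD, n = 3) against 3.37 ± 1.87 TPM. The summed level of markers of fibroblasts, another source of α4, moved the same way. Their summed level (5 genes) was 5.441 to 15.11 TPM in U87 sensitive, 36.08 to 41.04 TPM in U87 resistant, 390.9 to 601.8 TPM in U118 sensitive and 60.98 to 110.5 TPM in the libraries labelled U118 resistant, where PDGFRA was under 1 TPM in every library. PDGFRA and THY1 were also under 1 TPM in every U87 library. Single genes carried the sums: FAP in U87, at 28.87 to 34.65 TPM in resistant libraries, and THY1 in U118. THY1 read 213 to 458.6 TPM in U118 sensitive and 51.23 to 103.5 TPM in resistant libraries, and all 5 markers were lower in the latter. Endothelial markers (5 genes) summed to at most 4.659 TPM in any library, with PECAM1 and CDH5 under 1 TPM throughout. The part of either cell type in the LAMA4 result was not tested.

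LAMA5 encodes α5, the broadly expressed chain of mature basement membranes. Its U87 values were 4.63, 3.21 and 5.12 TPM in sensitive and 5.28, 5.12 and 5.18 TPM in resistant libraries. The groups there nearly touched without overlapping, and the log2 change of 0.24 ± 0.18 was not called (limma adjusted p = 0.33). In U118 LAMA5 read 31.5, 30.8 and 25.7 TPM in sensitive libraries and 11.4, 4.46 and 4.10 TPM in resistant ones. It fell by 2.11 ± 0.35 (limma adjusted p = 0.00111), to a level near that of U87.

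LAMA1 encodes α1, the chain of early embryonic laminin. It was the main α transcript of U87 sensitive cells, at 17.3, 14.5 and 19.2 TPM, and read 8.51, 8.95 and 9.37 TPM in U87 resistant cells. That log2 change of -0.85 ± 0.14 passed the p threshold (limma adjusted p = 0.00357) but not the size threshold. The U118 values were 4.03, 5.14 and 3.97 TPM in sensitive and 3.22, 2.94 and 4.46 TPM in resistant libraries, overlapping groups with a log2 change of -0.25 ± 0.23 (limma adjusted p = 0.388), which turned to 0.17 after median-ratio rescaling. LAMA1 was therefore the single member without a call in U118.

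On average LAMA2 was the lowest member in both U87 groups and LAMA3 in both U118 groups. LAMA2, which encodes the α2 chain of muscle and Schwann cell laminin, read 2.34, 1.52 and 0.624 TPM in U87 sensitive and 1.24, 0.730 and 1.26 TPM in U87 resistant libraries, with no call (log2 change -0.21 ± 0.28, limma adjusted p = 0.578). In U118 it read 5.21, 4.30 and 6.10 TPM in sensitive and 1.80, 0.576 and 1.14 TPM in resistant libraries, a fall of 1.54 ± 0.26 (limma adjusted p = 0.00131). The 3 muscle markers summed to at most 1.668 TPM and the 4 Schwann cell markers to at most 6.594 TPM in any library. LAMA3, which encodes the α3 chain of epithelial laminin, read 5.92, 6.71 and 7.52 TPM in U87 sensitive and 8.23, 6.12 and 7.82 TPM in U87 resistant libraries, with overlapping groups and no call (log2 change 0.12 ± 0.16, limma adjusted p = 0.616). In U118 it read 1.79, 3.64 and 3.98 TPM in sensitive libraries and was under 1 TPM in every resistant one (0.852, 0.568 and 0.899 TPM). Its fitted log2 change there was -1.18 ± 0.25 (limma adjusted p = 0.0046), a size that the added pseudocount shrinks at such levels. LAMA3 passed the filter in U118 through the sensitive group alone, so its groups had to differ and that p-value is a description. The summed level of the 5 epithelial markers also fell in U118, through KRT14 alone. It went from 3.875 to 6.885 TPM in sensitive to 0.9497 to 1.558 TPM in resistant libraries. KRT14, a basal keratin, carried that sum, at 6.72, 5.55 and 3.79 TPM in U118 sensitive libraries, and is listed at 0 in the other groups. EPCAM, CDH1 and KRT19 went the other way in U118, with every resistant library above every sensitive one, though all under 1 TPM. The part of KRT14 in the LAMA3 result was not tested.

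Among the β chains, LAMB3 encodes β3, the partner of α3 in epithelial laminin, and rose in both lines. Sensitive U87 libraries read 14.5, 13.3 and 10.3 TPM and resistant ones 33.6, 22.2 and 26.2 TPM. Sensitive U118 libraries read 6.90, 7.87 and 5.43 TPM and resistant ones 65.5, 61.1 and 66.5 TPM, the tightest resistant group of any β or γ chain in that line. The log2 change was 1.04 ± 0.19 in U87 (limma adjusted p = 0.00563) and 3.09 ± 0.22 in U118 (limma adjusted p = 7.03e-06). The U87 call sat at the size threshold: without U87 sensitive replicate 3 or without U87 resistant replicate 1 the change was 0.91 or 0.89 and the call was lost. LAMA3, the usual partner, was not called higher in either line, as given above, and the epithelial markers EPCAM, CDH1, KRT5 and KRT19 were under 1 TPM throughout.

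LAMB1 encodes β1, the most widespread β chain. It read 26.1, 36.4 and 28.5 TPM in U87 sensitive and 59.2, 47.0 and 43.3 TPM in U87 resistant libraries, a log2 change of 0.70 ± 0.17 that passed the p threshold alone (limma adjusted p = 0.0152). Its U118 values were 131.1, 147.2 and 123.3 TPM in sensitive and 79.7, 40.5 and 41.7 TPM in resistant libraries, a fall of 1.36 ± 0.28 (limma adjusted p = 0.0037). LAMB2, whose β2 chain is known from the neuromuscular junction, the kidney filter and vessel walls, read 87.3, 78.3 and 101.2 TPM in U87 sensitive and 69.8, 57.6 and 58.7 TPM in U87 resistant libraries (log2 change -0.51 ± 0.12, limma adjusted p = 0.0167, under the size threshold). In U118 it read 135.2, 139.2 and 126.0 TPM in sensitive and 78.7, 38.9 and 45.2 TPM in resistant libraries, a fall of 1.35 ± 0.27 (limma adjusted p = 0.00342). LAMB1 and LAMB2 kept nearly the same ratio in U118, 1.002 ± 0.0483 (SD, n = 3) in sensitive and 0.992 ± 0.0612 in resistant libraries, whereas in U87 the ratio of LAMB1 to LAMB2 went from 0.349 ± 0.101 to 0.80 ± 0.0561.

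LAMC1 encodes γ1, the γ chain that most laminins share. It read 119.3, 146.0 and 140.3 TPM in U87 sensitive and 117.7, 95.0 and 113.4 TPM in U87 resistant libraries. Every resistant library lay below the sensitive ones, but by little, and the log2 change of -0.31 ± 0.12 was not called (limma adjusted p = 0.0703). The U118 levels were 164.6, 179.0 and 180.4 TPM in sensitive and 82.2, 44.3 and 46.8 TPM in resistant libraries, a fall of 1.64 ± 0.26 (limma adjusted p = 0.000957). LAMC1 thus fell in U118 together with both of the widespread β chains.

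The libraries labelled U118 resistant were not uniform. Replicate 1, the library with the low mitochondrial share, lay above replicates 2 and 3 for 6 of the 9 members (LAMA2, LAMA4, LAMA5, LAMB1, LAMB2 and LAMC1), by 1.8 to 2.65 times their mean, but at 1.03 times for LAMB3. Without replicate 1 the U118 member counts were again 1 higher and 7 lower, and the median log2 change of the members was -1.68, beside -0.756 over all genes. How many of all genes lay highest in replicate 1 was not counted, so the count of 6 members is a description. Replicate 1 also held 15193 genes at 1 TPM or more, against 13270 and 13545 in replicates 2 and 3. U118 sensitive libraries held 15129 to 15290. The rank correlation of replicate 1 with them was 0.821 to 0.839, against 0.808 to 0.823 and 0.815 to 0.828 for replicates 2 and 3. The part of the mitochondrial share or of these differences in the member values was not tested.

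**Figure D2:**
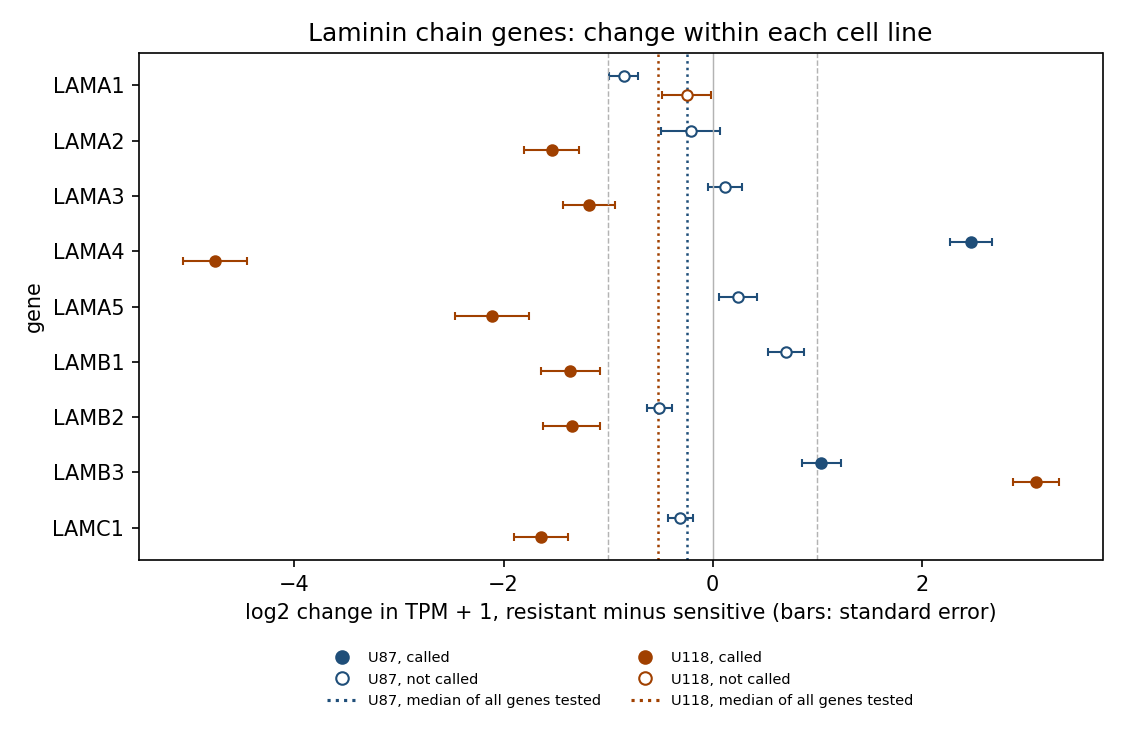
Log2 change in TPM + 1 (resistant minus sensitive) of each laminin chain gene in U87 and U118, with standard errors as bars; filled points were called, dashed lines mark changes of 1 in size and dotted lines the median of all genes tested. LAMA4 lies at 2.47 in U87 and -4.76 in U118, and LAMB3 is the member called higher in both lines.

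Whether the lines differed in their response was tested directly, as an interaction over all 12 libraries. The change in U118 was lower than in U87 for 6 members and higher for 1, and 2 were not called, while 18.5% of all 16382 genes tested were called lower and 12% higher. LAMA4 showed a difference of -7.24 ± 0.39 on the log2 scale (limma adjusted p = 2.35e-08), having risen in U87 and fallen in U118. LAMA5 (-2.35 ± 0.42, limma adjusted p = 0.000771) and LAMB1 (-2.06 ± 0.34, limma adjusted p = 0.000441) followed, then LAMA2, LAMC1 and LAMA3 between -1.33 and -1.30. LAMB3 rose by 2.05 ± 0.28 more in U118 than in U87 (limma adjusted p = 8.57e-05). LAMB2 (-0.84 ± 0.31, limma adjusted p = 0.0517) and LAMA1 (0.60 ± 0.27, limma adjusted p = 0.1) were not called, although LAMB2 reached -1.14 (limma adjusted p = 0.000527) without U118 resistant replicate 1. These tests carry the same limit as the U118 comparison, since the group that stands apart is part of each.

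Because laminins assemble from 1 chain of each kind, the make-up of the chain transcripts within a library was also compared; such shares do not move with the scaling of a library. LAMA4 made up 15.5% ± 4.67 (SD, n = 3) of the summed TPM of the 5 α genes in U87 sensitive and 59.9% ± 2.46 in U87 resistant libraries. In U118 its share went from 72.5% ± 2.42 to 20.9% ± 3.07. The share of LAMA1 in U87 went from 48.6% ± 3.54 to 15.9% ± 1.96. In U118 LAMA5 went from 19.2% ± 2.24 to 41.2% ± 9.76 and LAMA1 from 2.87% ± 0.587 to 25.3% ± 9.90 of a much smaller sum. The summed α level was 34.9 ± 2.83 TPM in sensitive and 56.5 ± 5.31 TPM in resistant U87 libraries, and 153.4 ± 8.74 against 15.5 ± 6.41 TPM in U118.

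Of the summed TPM of the 3 β genes, LAMB3 held 9.67% ± 2.09 in U87 sensitive and 19.5% ± 1.77 in U87 resistant libraries, and 2.44% ± 0.28 against 38.7% ± 8.18 in U118. LAMB2 held 67.3% ± 5.62 of the β sum in U87 sensitive and 44.7% ± 1.56 in U87 resistant libraries. Its U118 shares were 48.8% ± 1.25 and 30.8% ± 3.91. LAMB1 held 23.1% ± 4.65 and 35.8% ± 1.72 in U87, a gain, but 48.8% ± 1.07 and 30.5% ± 4.45 in U118. The summed β level did not separate in U87, at 131.9 ± 6.93 and 139.2 ± 20.4 TPM (exact permutation test, two-sided p = 0.8), and was 274 ± 19.8 against 172.6 ± 44.9 TPM in U118. With 3 libraries against 3 the exact two-sided test cannot give a p below 0.1, and the shares of LAMA1, LAMA3, LAMA4, LAMB1, LAMB2 and LAMB3 reached that value in both lines, their groups not overlapping. Set against LAMC1, the summed α transcripts were 0.260 ± 0.0322 times as abundant in U87 sensitive, 0.521 ± 0.0256 in U87 resistant, 0.881 ± 0.0930 in U118 sensitive and 0.266 ± 0.0268 in the libraries labelled U118 resistant.

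**Figure D3:**
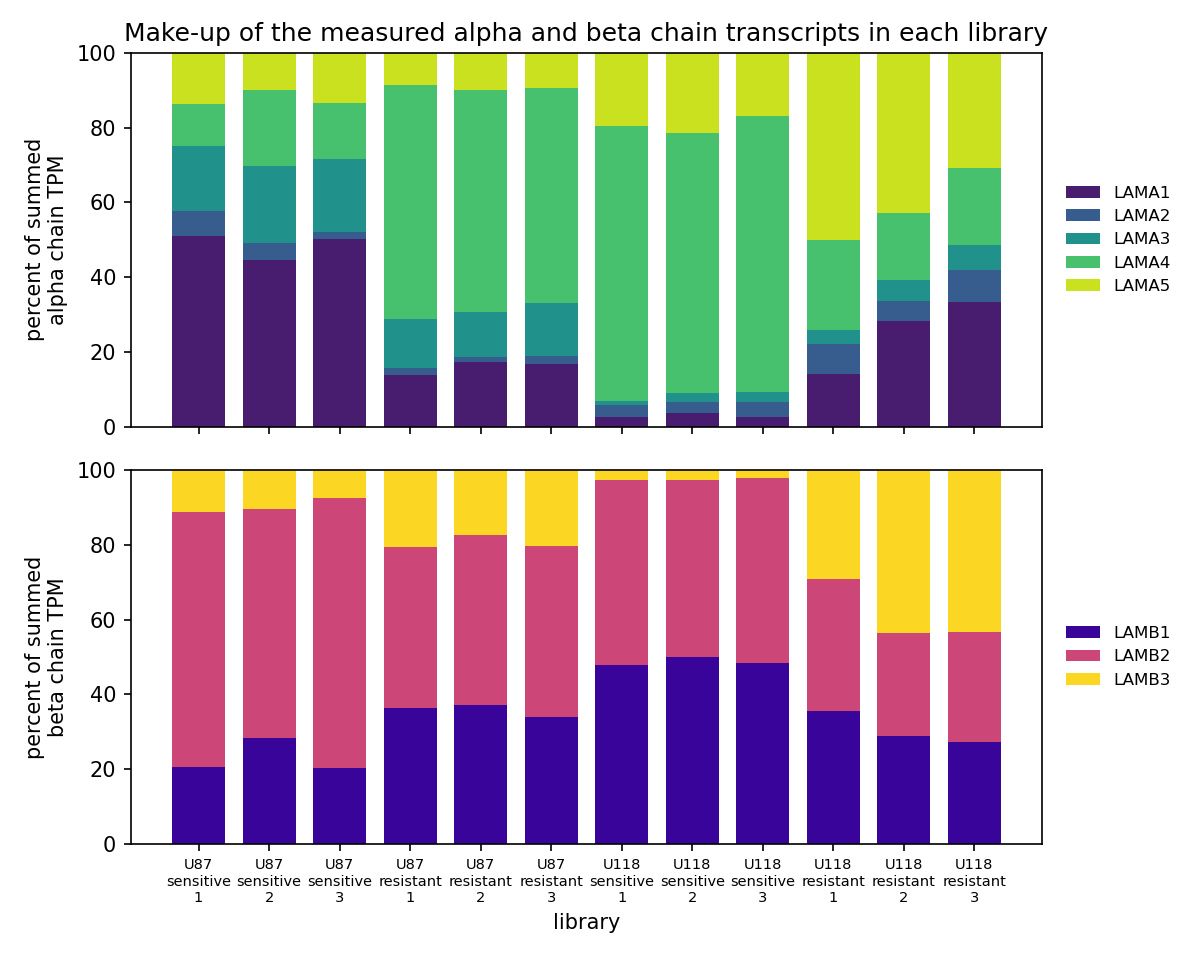
Percent of the summed TPM of the 5 α chain genes (top) and the 3 β chain genes (bottom) held by each gene in each of the 12 libraries. LAMA4 holds 57.7 to 62.6% of the α sum in U87 resistant and 69.7 to 74.0% in U118 sensitive libraries, and LAMB3 holds 29.2 to 43.5% of the β sum in the libraries labelled U118 resistant.

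The order of the members by level differed between the groups. LAMC1 was the highest member in U87 sensitive (135.2 TPM on average), U87 resistant (108.7) and U118 sensitive cells (174.7), in each case above the next gene in every library. In the libraries labelled U118 resistant LAMB3 ranked highest at 64.3 TPM, followed by LAMC1 (57.8), LAMB2 (54.3) and LAMB1 (53.9), 4 genes whose values overlapped between neighbours. LAMA4 ranked 7 of 9 in U87 sensitive, 4 in U87 resistant, 4 in U118 sensitive and 7 in U118 resistant cells. At the low end, LAMA3 overlapped its neighbour LAMA1 in U118 sensitive and LAMA2 in U118 resistant cells.

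Laminin networks are tied to a second network of type IV collagen by nidogens and perlecan, so 16 such partner genes were examined. In U87, 6 were tested, 3 were higher (SMOC1, SPARC and HSPG2) and 0 lower (also 0 lower at limma's unadjusted p under 0.05), with a list median of 1.11 beside -0.245 over all genes. In U118, 11 were tested, 2 were higher (SMOC1 and FBLN1) and 7 lower (PXDN, NID1, COL4A1, COL4A2, NID2, AGRN and HSPG2). The list median there was -1.67, beside -0.522 over all genes. Of all genes tested, 3.03% were higher and 7.79% lower in U87, and 8.64% and 26.6% in U118. PXDN, NID1 and COL4A1 passed the filter in U118 through the sensitive group alone, so these genes had to differ. FBLN1 reached 1 TPM in only 1 sensitive library and passed mainly through the resistant group. The U118 counts are therefore a description. After median-ratio scaling NID2 was also called higher in U87 (1.05, limma adjusted p = 0.00106) and FBLN2 in U118 (1.18, limma adjusted p = 0.00028), while HSPG2 was no longer called lower there. PXDN, the peroxidase that crosslinks type IV collagen, was at 92.5, 112.7 and 109.2 TPM in U118 sensitive libraries and 0.0734, 0.0106 and 0.222 TPM in resistant ones, and is listed at 0 in all U87 libraries. NID1, which joins laminin γ1 to collagen, read 16.1, 12.6 and 22.6 TPM against 0.121, 0.0101 and 0.0617 TPM in U118, and at most 0.0467 TPM in U87. COL4A1, a type IV collagen chain, read 8.31, 9.08 and 8.59 TPM in U118 sensitive libraries and 0.0342, 0 and 0.0215 TPM in resistant ones, and is listed at 0 throughout U87. These genes were thus nearly absent from U87 and from the libraries labelled U118 resistant alike.

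SMOC1, a calcium-binding basement membrane glycoprotein, was the partner called higher in both lines, like LAMB3 among the chains. It read 9.20, 7.91 and 9.56 TPM in U87 sensitive and 43.3, 37.7 and 39.2 TPM in U87 resistant libraries, and 7.25, 6.02 and 5.62 TPM in U118 sensitive and 59.6, 40.8 and 40.9 TPM in U118 resistant libraries. The log2 changes were 2.06 ± 0.12 (limma adjusted p = 8.09e-05) and 2.70 ± 0.24 (limma adjusted p = 2.86e-05). HSPG2, which encodes perlecan, went in opposite directions, with log2 changes of 1.43 ± 0.18 in U87 (limma adjusted p = 0.00115) and -1.04 ± 0.25 in U118 (limma adjusted p = 0.00829). The HSPG2 fall was lost without U118 sensitive replicate 2 (-0.95) or U118 resistant replicate 3 (-0.89), and it was -0.57 after median-ratio rescaling.

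**Figure D4:**
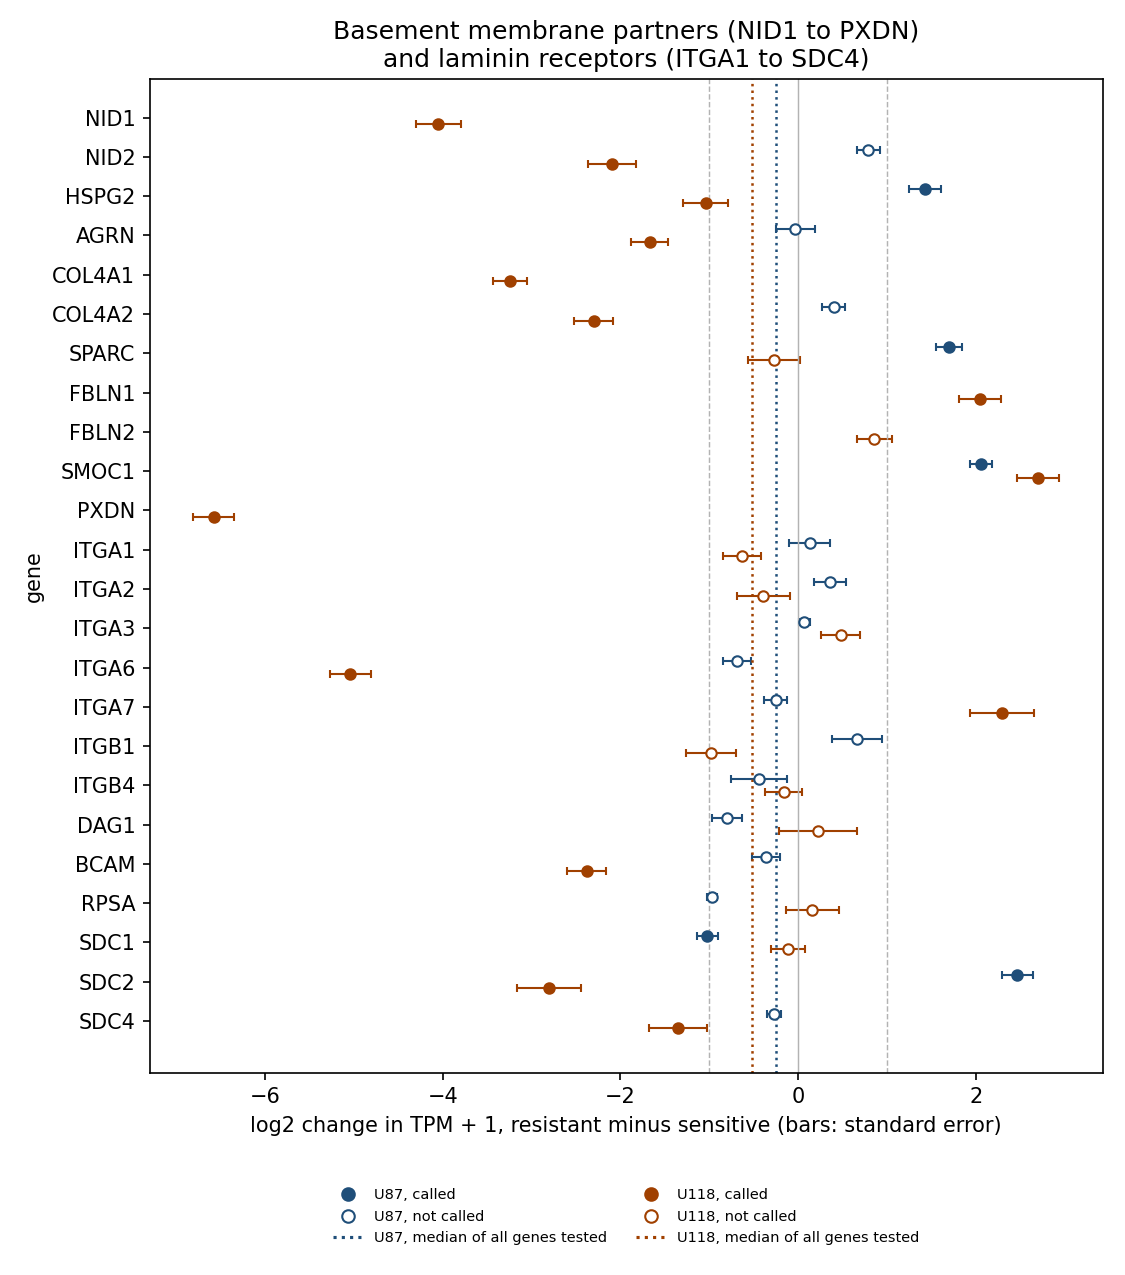
Log2 change in TPM + 1 (resistant minus sensitive, bars are standard errors) of the basement membrane partners and laminin receptors tested in U87 or U118; filled points were called and dotted lines mark the median of all genes tested. SDC2 lies at 2.47 in U87 and -2.80 in U118, and PXDN and ITGA6 lie furthest below 0 in U118.

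Of 13 laminin receptor genes, all tested in both lines, 1 was higher (SDC2) and 1 lower (SDC1) in U87, and 1 was higher (ITGA7) and 4 lower (ITGA6, SDC2, BCAM and SDC4) in U118. Of all genes tested, 3.03% were higher and 7.79% lower in U87, and 8.64% and 26.6% in U118. ITGA6 passed the filter in U118 through the sensitive group alone and so had to differ. The list median in U87 was -0.27, beside an all-gene median of -0.245, and in U118 it was -0.39, beside -0.522. The receptor list as a whole thus lay near all genes. SDC2, a heparan sulfate syndecan, was, like LAMA4, called higher in U87 and lower in U118. It read 2.95, 4.51 and 3.14 TPM in U87 sensitive and 22.99, 23.2 and 25.6 TPM in U87 resistant libraries, and 46.3, 109.7 and 123.4 TPM in U118 sensitive and 14.02, 9.59 and 11.05 TPM in U118 resistant libraries. The interaction for SDC2 was -5.28 ± 0.44 (limma adjusted p = 1.15e-06). ITGA6, the α6 integrin subunit of laminin-binding integrins, read 28.6, 31.3 and 40.7 TPM in U118 sensitive libraries and 0.108, 0 and 0.00494 TPM in resistant ones. It lay between 2.63 and 6.03 TPM in U87, so here the libraries labelled U118 resistant lay below both U87 groups.

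ITGA7, the α7 subunit best known from muscle, rose in U118 from 8.18, 8.81 and 5.59 TPM to 72.9, 30.3 and 29.8 TPM (log2 change 2.30 ± 0.36, limma adjusted p = 0.000874), and read 94.3 to 138.3 TPM across U87. BCAM, a receptor for the α5 chain, read 11.8, 16.0 and 13.5 TPM in U118 sensitive and 1.82, 1.84 and 1.82 TPM in U118 resistant libraries, a fall of 2.38 ± 0.22 (limma adjusted p = 4.15e-05) in the line where LAMA5 fell too. The shared β1 integrin subunit, ITGB1, was not called in either line, with log2 changes of 0.66 ± 0.28 (limma adjusted p = 0.106) and -0.98 ± 0.28 (limma adjusted p = 0.0174). The U87 fall of SDC1, another syndecan, was -1.02 ± 0.12 (limma adjusted p = 0.00094), a size that dropped under the threshold in 4 of the 6 fits that left out a U87 library, to as little as -0.96, and was -0.74 after median-ratio rescaling. SDC4, a further syndecan, fell in U118 by 1.35 ± 0.33 (limma adjusted p = 0.00814), or by 0.84, under the size threshold, after that rescaling.

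Genes that glycosylate or anchor dystroglycan, the sugar-dependent laminin receptor, were also examined. Of 8 tested in U87, 0 were called higher and 0 lower by limma, with 1 and 1 at an unadjusted p under 0.05. Of 9 tested in U118, 0 were higher (1 at an unadjusted p under 0.05) and 3 lower, beside 26.6% of all genes tested in U118, among them POMT1 (log2 change -1.22 ± 0.29, limma adjusted p = 0.0079). Of these, 1 passed the filter through the sensitive group alone. POMT1 was at -0.74 after median-ratio rescaling, under the size threshold, while POMGNT1 was then called higher (1.31, limma adjusted p = 0.00325). Among 7 relatives that carry laminin-type domains, 2 were tested in each line. By limma 0 were called in U87, with 1 higher and 0 lower at an unadjusted p under 0.05. NTN4 and NTNG1 were lower in U118, where 26.6% of all genes tested were lower. NTN4, a netrin that binds laminin γ1 and disrupts laminin networks, read 86.1, 76.2 and 97.7 TPM in U118 sensitive and 3.46, 2.14 and 1.47 TPM in U118 resistant libraries (log2 change -4.74 ± 0.27, limma adjusted p = 2.01e-06), and 0.779 to 2.13 TPM in U87. NTNG1, a membrane-anchored netrin, fell by 1.38 ± 0.28 (limma adjusted p = 0.00322), or by 0.88 after rescaling. Of 6 proteases that can cut laminin chains, 3 were tested in each line. Among all genes tested in U87, 3.03% were called higher. MMP14, a membrane-bound metalloproteinase, was higher in U87 (239.6, 214.2 and 202.4 TPM against 608.3, 547.2 and 604.2 TPM, log2 change 1.42 ± 0.08, limma adjusted p = 8.53e-05), and 0 were called in U118, with 1 higher and 1 lower at an unadjusted p under 0.05. There MMP14 had a log2 change of -0.90 ± 0.21 (limma adjusted p = 0.00728), or -1.02 without U118 resistant replicate 1, which passed the threshold. After median-ratio scaling MMP2 was also called higher in U87 (1.10, limma adjusted p = 0.000313) and BMP1 in U118 (limma adjusted p = 0.000679).

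For the 7 members that reached a group mean of 10 TPM, the genes with the most similar profile over the 12 libraries were named by Pearson's r of log2(TPM + 1) among 16382 genes. LAMA4 was closest to PCDHB13 (r = 0.981) and GALNT5 (r = 0.980), LAMB3 to CD82 (r = 0.987) and GALNT18 (r = 0.983), and LAMA1 to KIF6 (r = 0.984) and EPHX1 (r = 0.980). LAMA5 was closest to ITGA10 (r = 0.991) and GVQW3 (r = 0.989), LAMB1 to NALF1 (r = 0.985), LAMB2 to ECI2 (r = 0.989) and OSER1 (r = 0.984), and LAMC1 to FKBP5 (r = 0.983) and MRFAP1L1 (r = 0.980). No member was among the nearest genes of another. The 12 points form 4 groups of 3, so these values mostly describe the order of the group means.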

How the data were processed

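mRNA-seq libraries of U87 and U118 cells were analysed from the deposited gene tables. The authors deposited TPM values per gene, 1 table per cell line, from mRNA libraries; the submitters' processing notes name FastQC 0.11.2, Trimmomatic 0.36, HISAT2 2.0, bedtools 2.26.0 and GRCh38, and the quantification tool, annotation and strand setting are not given in the sources used here. The 2 tables were read together for levels and for the difference between the lines. Positions were taken from GENCODE release 29. Groups and replicate numbers came from the labels, and all 12 libraries were used.

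Values were transformed to log2(TPM + 1), where the pseudocount of 1 understates changes of low genes, and limma 3.58.1 (R 4.3.3, moderated variances with a mean trend) was run on genes that reached 1 TPM in 3 or more libraries of the fit. A call needed an adjusted p (Benjamini-Hochberg) below 0.05 together with a log2 change of 1 or more in size. The difference between lines was fitted over all 12 libraries. Shares within a library were compared with exact permutation tests. The fit was tested on simulated data. The members and gene lists were chosen with earlier results of these data known. Partner genes were named by rule, as up to 4 of each list with the largest called change plus those behind small counts, and a few of these are left out of the text; ITGB1 was added after its values were seen. Alternatives were other pseudocounts (0.1, 0.01), other filters, other scalings, a replicate block, eBayes without trend, no size threshold and leaving out each library. Tables were joined with pandas 2.3.3 and figures drawn with matplotlib 3.10.9.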

Additional observations from a re-analysis of the deposited data

Results flagged for a closer look

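The change between resistant and sensitive cells differed between U118 and U87 for 7 of the 9 laminin genes, 1 higher and 6 lower. The test was an interaction fitted with limma over 12 libraries. By it, 12% of all 16382 genes tested were called higher and 18.5% lower. The U118 change minus the U87 change was -7.24 for LAMA4, -2.35 for LAMA5, -2.06 for LAMB1, -1.33 for LAMA2, -1.32 for LAMC1, -1.30 for LAMA3 and 2.05 for LAMB3 on the log2 scale. LAMA4 alone was called in opposite directions in the lines, higher in 3 of 3 U87 resistant libraries and lower in 3 of 3 libraries labelled U118 resistant. LAMB3 was called higher in both. All 7 values rest on the U118 group whose profile is closer to U87 than to its own sensitive libraries, and the part of that in them was not tested.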

How the results depend on the processing

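Kept in direction and call under every alternative that gave a value were LAMA4 in U87 (log2 change 2.28 to 2.73) and, in U118, LAMA4 (-5.18 to -4.32), LAMB3 (2.96 to 3.57), LAMA5 (-2.52 to -1.65), LAMA2 (-2.27 to -1.21) and LAMC1 (-1.92 to -1.12). Without a size threshold, 2 laminin genes were called lower in U87 (LAMA1 and LAMB2) in place of 0, since that alternative asks only for the adjusted p. It also called 3 higher in place of 2, with LAMB1 added. Of the 13845 genes tested in U87, it called 1306 higher and 4107 lower, so the members called lower are a description. Under median-ratio scaling 4 were called lower in U118 in place of 7, and LAMA1 turned to 0.17. Leaving out each library in turn gave 1 to 2 called higher and 0 lower in U87, 1 higher and 6 to 7 lower in U118 (LAMA3 is not tested without a U118 sensitive library), and 1 higher and 6 to 7 lower for the difference between the lines. With each library left out in turn LAMA2 in U87 ran from -0.49 to 0.03 (turned without U87 sensitive replicate 1), and its difference between the lines was not called with a pseudocount of 0.01 (-1.95, limma adjusted p = 0.0638). Of the partner genes not called in U87, ITGA7, SDC4 and POMT1 turned to 0.02, 0.01 and 0.16 under median-ratio scaling, POMT1 to 0.03 without mitochondrial genes, and, leaving out single libraries, NTNG1 ran from -0.02 to 0.26. In U118 SPARC and SDC1 turned to 0.24 and 0.40 under median-ratio scaling, and SDC1 to 0.09 without mitochondrial genes. The cause was not tested. Over all genes, calls in U118 were 767 higher and 5627 lower without U118 resistant replicate 1. The replicate numbers did not pair the samples in U87: deviations of same-numbered libraries correlated at -0.067 to 0.011, beside -0.058 to 0.077 for other numbers. In U118 they correlated at 0.051 to 0.139, beside -0.108 to 0.040, and each library correlated best with its own number. Whether the numbers pair samples in U118 is therefore not known. With a replicate block the laminin counts were again 2 and 0 in U87 and 1 and 7 in U118, and all-gene calls were 414 and 1040 in U87 and 1363 and 4218 in U118. A filter at a mean of 10 TPM removed the low members, which then have no value. TPM holds no depth, which limits what can be said of genes under 1 TPM.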
